A study of Mus musculus with 778 samples.

Results

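The genes that encode splicing factors and heterogeneous nuclear ribonucleoproteins (hnRNPs) were followed over 5 stages of oocyte growth in the mouse. They were taken by symbol from the table of single-cell RNA counts, as every gene whose symbol starts with Srsf, Hnrnp, Sf3a, Sf3b or Snrp. Of the 53 such symbols, Snrpn and Hnrnpa1l2-ps2 were left out, which gave 51 genes among the 23201 of the table. By role, 11 encode SR proteins (Srsf), 8 encode hnRNPs of the A/B, C and D families, 12 encode other hnRNPs, 9 encode subunits of SF3a and SF3b, 7 encode the Sm ring and 4 encode proteins specific to the U1 or U2 snRNP.

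Oocytes came from the ovaries of wild type female mice of the ICR strain and were sorted by diameter. Non-growing oocytes (NGO, below 20 μm) were from mice aged 3 to 4 days. Growing oocytes of 30 to 45 μm (GO1), 50 to 55 μm (GO2) and 60 to 65 μm (GO3), and fully-grown oocytes above 70 μm (FGO), were from mice aged 3 to 4 weeks. Between NGO and any later stage, growth and mouse age therefore cannot be told apart here. The stages from GO1 to FGO share 1 age range. The table held 46 NGO, 51 GO1, 26 GO2, 44 GO3 and 56 FGO cells, each picked by hand after enzymatic release and washing. RNA with a poly(A) tail was counted with unique molecular identifiers (UMIs), random tags that let copies of 1 captured molecule be counted once. The cells were sequenced in 4 libraries, but the table names the stage of a cell and not its library or mouse. Each stage was therefore 1 pooled sample without replicates, and no difference between stages was tested.

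A level is given as counts per 1000000 (CPM), for which the UMIs of a gene and of all genes were added up within a stage. It is a share of the captured RNA and does not follow the amount of RNA per oocyte. Rise and fall are used for a difference of 2-fold or more with no less than 10 CPM at the higher of both stages. Intervals at 95% are exact and cover counting error only. Stage totals ran from 24976634 UMIs in GO2 to 64311908 in FGO, and the median cell held from 110146 UMIs in GO1 to 972294 in GO3. Deep cells carried the sums of GO1 and GO2, where the 10 deepest made up 80.4% and 73.2% of the stage, against 42.6% to 49.7% elsewhere. GO2 had only 26 cells, so 10 cells are a larger part of it than of the other stages. Its median cell held 676786 UMIs. In GO1, 24 of the 51 cells had fewer than 100000 UMIs. The average of single-cell CPM values (mean over cells), in which every oocyte weighs the same, is therefore given beside the sums. All 14 oocyte markers were above 1 CPM in every stage, among them Gdf9 (4919, 4755, 5524, 4970.5 and 5681 CPM from NGO to FGO). The sum of the 14 was lowest in GO1, at 25059 CPM against 34264 CPM in NGO. The median cell held 19435 CPM of them in GO1 and 33746 CPM in NGO. Summed over their lists, 12 granulosa cell markers held 16.3 to 44.7 CPM per stage (Amh and Foxl2 at most 0.233 CPM), 9 stroma or theca markers held 2.65 to 14.2 CPM and 8 blood markers held 9.13 to 50.5 CPM, with the 4 haemoglobin genes at 0. Of these, Cyp19a1 (1.11, 16.3, 13.3, 6.70 and 1.54 CPM) and Pecam1 (4.60, 37.6, 40.4, 48.8 and 26.7 CPM) were higher in GO1 than in NGO, and their part in the results was not tested. One NGO oocyte held 257 CPM over the stroma or theca markers, where the median NGO oocyte held 4.05 CPM. The part of that oocyte was not tested either.

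Splicing removes introns from the primary transcript in the nucleus. U1 and U2 snRNPs, particles of a small nuclear RNA and proteins, mark the ends of the intron. A ring of Sm proteins (encoded by Snrpb, Snrpd1, Snrpd2, Snrpd3, Snrpe, Snrpf and Snrpg) encloses the RNA of most spliceosomal snRNPs. SF3a and SF3b belong to the U2 snRNP and hold it on the branch point. SR proteins bind exons through RNA recognition motifs and recruit the spliceosome through stretches rich in arginine and serine. hnRNPs coat the transcript, and many of them oppose the use of nearby splice sites. In mice the growing oocyte transcribes and stores RNA, and transcription stops when it is fully grown, which leaves the stored RNA for maturation and the early embryo.

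Promoter sequence is shown for genes that rose or fell at the onset of growth. The RefSeq promoter table (build GRCm38.p6) gives 250 bases before and 50 bases after a transcription start. From it, 59 promoters of 45 of the 51 genes were used. No promoter of Hnrnpll, Hnrnpul2, Sf3b4, Sf3b5, Snrpb or Snrpd1 was used. For Snrpd1 this does not show that the table lacks an entry. The promoters of 4 genes that rose or fell between NGO and GO1 are printed 5′ to 3′, both with an entry that rose and, as examples, those of 2 SR genes that fell. Hnrnpa1 (chr15:103240147-103240446, plus strand) and Snrpa1 (chr7:66060086-66060385, plus strand) rose. Srsf6 (chr2:162931258-162931557, plus strand) and Srsf7 (chr17:80207256-80207555, minus strand) fell. Capitals mark each match, on either strand, to 1 of the 5 motifs listed after them.
Hnrnpa1: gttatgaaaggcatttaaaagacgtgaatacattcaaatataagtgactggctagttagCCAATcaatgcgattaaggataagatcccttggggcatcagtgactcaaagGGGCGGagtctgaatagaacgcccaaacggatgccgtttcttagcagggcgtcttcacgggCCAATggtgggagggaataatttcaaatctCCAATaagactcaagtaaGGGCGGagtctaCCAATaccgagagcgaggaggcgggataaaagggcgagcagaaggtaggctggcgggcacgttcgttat
Snrpa1: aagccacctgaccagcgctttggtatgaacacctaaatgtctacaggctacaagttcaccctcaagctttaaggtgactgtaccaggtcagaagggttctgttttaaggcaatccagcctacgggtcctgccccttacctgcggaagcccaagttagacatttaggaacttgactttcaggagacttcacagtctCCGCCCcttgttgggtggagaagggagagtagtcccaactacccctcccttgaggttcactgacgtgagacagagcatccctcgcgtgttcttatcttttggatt
Srsf6: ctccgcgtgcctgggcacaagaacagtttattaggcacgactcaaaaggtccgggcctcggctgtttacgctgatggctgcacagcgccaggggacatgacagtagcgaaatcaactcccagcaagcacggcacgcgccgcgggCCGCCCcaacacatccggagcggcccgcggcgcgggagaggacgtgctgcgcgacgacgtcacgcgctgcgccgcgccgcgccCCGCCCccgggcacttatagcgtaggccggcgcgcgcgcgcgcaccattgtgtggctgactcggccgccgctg
Srsf7: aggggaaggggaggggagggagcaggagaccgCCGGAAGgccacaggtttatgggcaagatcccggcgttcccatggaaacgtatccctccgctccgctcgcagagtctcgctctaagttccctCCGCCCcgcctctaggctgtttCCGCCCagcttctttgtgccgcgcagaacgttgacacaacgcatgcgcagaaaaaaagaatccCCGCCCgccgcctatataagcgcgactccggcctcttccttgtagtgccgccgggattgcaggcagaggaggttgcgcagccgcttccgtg

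The motifs searched were the CCAAT box (CCAAT), the GC box (GGGCGG), an ETS factor motif (CCGGAAG), the TATA box (TATAAA) and an E-box (CACGTG), on both strands, and none of them contains another. A GC box was found in 72.9% of the 59 promoters and in 35.7% of all 32851 promoters of the table. The ETS motif was in 35.6% against 8.86%. For the CCAAT box the shares were 45.8% and 37.4%, for the TATA box 10.2% and 13.6%, and for the E-box 11.9% and 7.15%. The median GC content was 61% in the 59 promoters and 52.7% in all, and the median number of CpG dinucleotides was 26 and 7. Base composition thus moved with the motif shares, and its part in them was not tested. The 4 printed promoters differ from each other. That of Srsf6 holds 2 GC boxes and 45 CpGs at 70% GC, and that of Srsf7 holds 3 GC boxes and 1 ETS motif at 62.7% GC. Hnrnpa1 has 4 CCAAT boxes and 2 GC boxes at 48.3% GC, while Snrpa1 has 1 GC box and 7 CpGs at 50.7% GC. A match is a stretch of letters and not a measured site of binding.

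In the stage sums most of the 51 genes neither rose nor fell in the 6 pairs of stages compared. In 44 of them the level reached 10 CPM in some stage, and in 42 it did so in all 5 stages. Of the 44, 13 rose or fell in at least 1 of the 6 pairs of stages compared and 31 in none. The same count over the 6 pairs was not made for all genes, so whether 13 of 44 is a small share was not tested. The 6 were the successive steps, NGO with FGO and GO1 with FGO. Pairs such as NGO with GO2 were left out. Between NGO and GO2, Sf3a1 (2.30-fold) and Sf3b3 (2.21-fold), both among the 31, were lower past the limit. Together the 51 genes held 6515, 5860.0, 5551, 5879 and 5842 CPM from NGO to FGO. The ratio of the highest to the lowest stage had a median of 1.77 over the 44 genes, against 2.24 over 8665 genes of at least 10 CPM with a UMI in every stage. In 13 of the 44 (29.5%) this ratio stayed below 1.5, as it did in 17.9% of those 8665 genes. NGO was the highest stage for 26 of the 44 genes, GO1 for 11, GO2 for 1, GO3 for 4 and FGO for 2. Over all 8671 genes of at least 10 CPM the same shares were 45.7%, 23.8%, 9.25%, 9.39% and 11.9%. The lowest stage was GO2 for 18 of the 44, NGO and GO1 for 8 each, GO3 for 7 and FGO for 3. It was not counted over all genes, so whether a low point in GO2 is particular to these genes is not known.

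**Figure D1:**
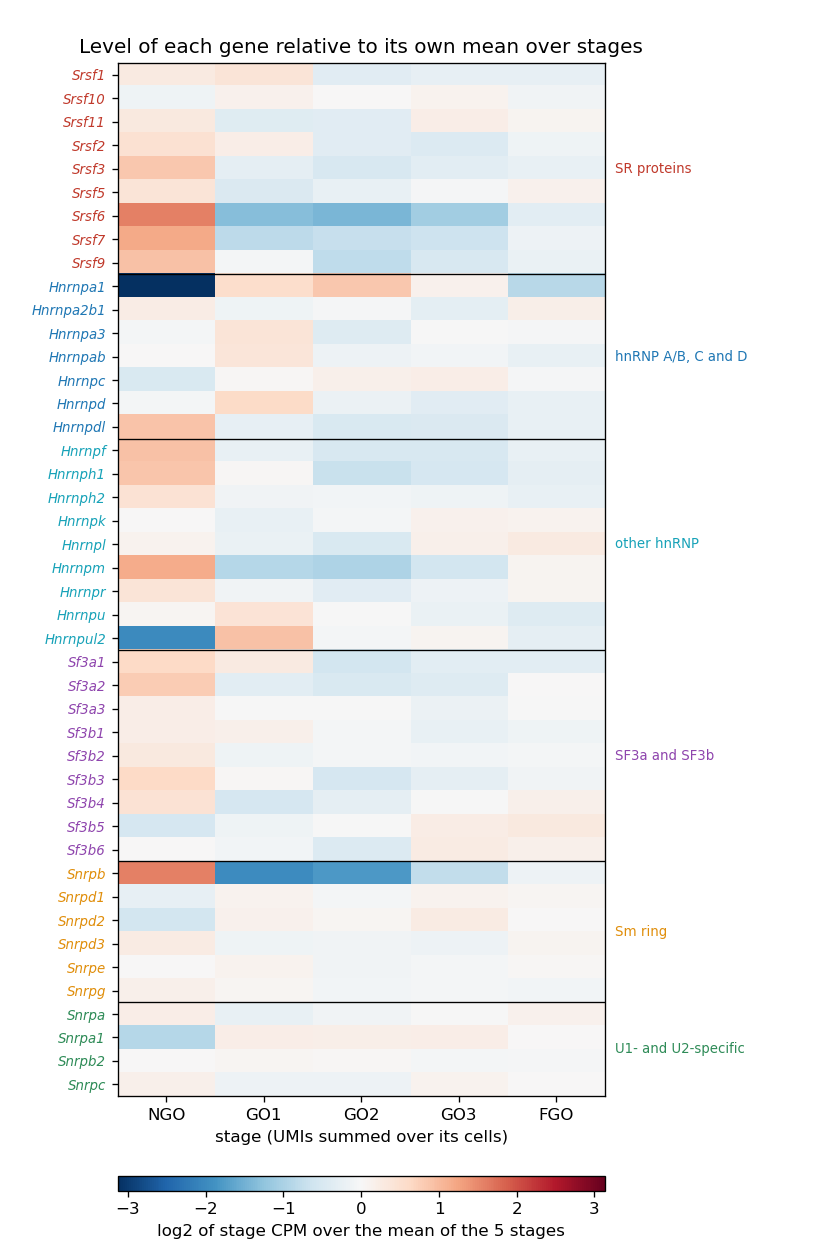
Level of each of the 44 genes that reached 10 CPM, as log2 of the CPM of the stage sum over the mean of the gene's 5 stages (colour, blue below and red above the mean), by stage (columns) and role (label colour and blocks). Hnrnpa1, Hnrnpul2 and Snrpa1 are lowest in NGO, while Snrpb, Srsf6, Srsf7 and Hnrnpm are highest there and lowest in GO1 or GO2.

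Among successive stages, the step from NGO to GO1, the onset of growth, held most of the differences. Of the 44 genes, 3 rose (Hnrnpa1, Hnrnpul2 and Snrpa1) and 8 fell (Hnrnpdl, Hnrnpf, Hnrnpm, Sf3a2, Snrpb, Srsf3, Srsf6 and Srsf7). Among all genes tested on this step 20.6% rose and 25.7% fell, so the shares of these genes that did so, 6.82% and 18.2%, were below those of the whole table. Their median log2 difference was -0.32, against -0.15 over all genes. Scaling by TMM factors gave 3 rises and 4 falls in place of 3 and 8, because Hnrnpdl, Hnrnpf, Sf3a2 and Srsf3, all near the 2-fold limit, then came under it. With those factors the median over all genes was 0.047 and that of these genes -0.16, so these genes lay below the median gene with either scaling of the sums. They lay above it in the mean over cells, at -0.25 against -0.36 over all genes, and in cells thinned to 20000 UMIs, at -0.21 against -0.36. Averaged over cells, 5 rose and 10 fell, 3 and 6 of them the same genes as in the sums. The genes that came in were Hnrnpa3 and Hnrnpd among the rises and Sf3b2, Sf3b4, Snrpa and Srsf5 among the falls, while Hnrnpdl and Srsf3 dropped out. The shares of all genes that rose or fell were counted in the sums, not with TMM factors or in the mean over cells.

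**Figure D2:**
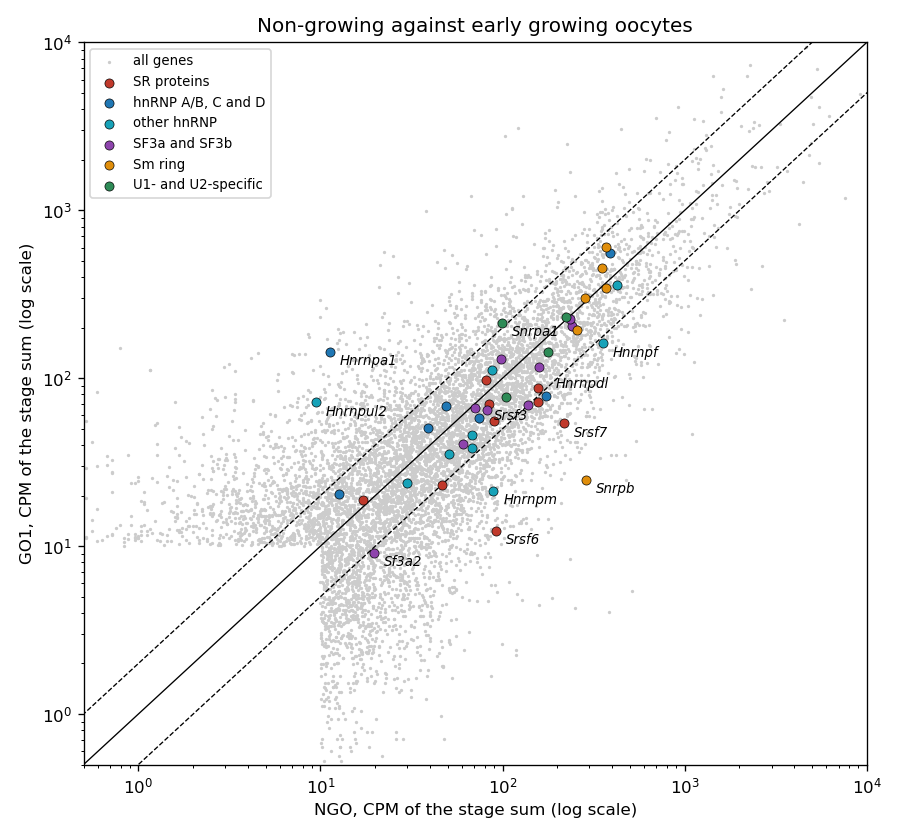
CPM of the stage sum in GO1 (vertical, log scale) against NGO (horizontal, log scale) for all genes of at least 10 CPM in either stage (grey) and for the splicing factor and hnRNP genes (coloured by role), with lines of equality (solid) and of 2-fold difference (dashed). The 11 named genes lie outside the dashed lines, and genes under 0.5 CPM in either stage are not drawn.

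Snrpb, the gene of the SmB proteins, fell furthest. It lies at NCBIM37 chromosome 2, 129997150 to 130005139, minus strand, with no other copy of at least 300 bases and 95% identity in that genome. From NGO to FGO it had 287, 24.7, 27.7, 56.2 and 86.7 CPM in the sums and 297, 22.04, 19.4, 56.2 and 82.3 CPM in the mean over cells. Single oocytes ranged over 158.7 to 416 CPM (median 300.1) in NGO and 0 to 120.1 CPM (median 14.9) in GO1, so no GO1 oocyte reached the lowest NGO oocyte. In GO2 cells held 2.18 to 51.5 CPM (median 11.6), in GO3 10.1 to 99.1 CPM (median 59.2) and in FGO 0 to 164 CPM (median 84.9). Its fall at the onset of growth was 11.6-fold (95% counting interval 10.7 to 12.6), and 13.5-fold in the mean over cells. The level then came back in part during growth. It rose 2.03-fold (95% counting interval 1.86 to 2.20) from GO2 to GO3 and 3.51-fold (95% counting interval 3.24 to 3.81) from GO1 to FGO, yet FGO stayed 3.31-fold (95% counting interval 3.20 to 3.43) below NGO. The step from GO2 to GO3 was under 2-fold with size factors by the median of ratios or TMM.

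The other genes of the Sm ring did not follow it. Of the 6 Sm genes that reached 10 CPM, Snrpb fell from NGO to GO1 and the other 5 neither rose nor fell. The falls were thus 16.7% of the 6 and none rose, beside 25.7% and 20.6% of all genes. Snrpd2 rose past 2-fold on this step without the 10 deepest cells of each stage. Snrpe was the flattest, with 284, 299, 257, 269 and 286 CPM from NGO to FGO and a ratio of 1.16 between its highest and lowest stage. Averaged over cells it was less even, at 287, 461, 304, 290.2 and 316 CPM. Snrpd2 had 368, 601, 572, 658 and 559.7 CPM and Snrpd1 352, 455, 406, 454 and 436 CPM, both lowest in NGO, while Snrpd3 had 257, 193, 197.8, 190.2 and 227 CPM and Snrpg 371, 345, 308, 314 and 309 CPM. The sum of the 7 Sm genes was 1918, 1918, 1769.8, 1941 and 1904 CPM in the stage sums. The median cell held 1942, 2671, 1861, 1934 and 2065 CPM, which differed from the sums most in GO1.

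Snrpf, the remaining Sm gene, was almost without counts. It had 2, 0, 3, 2 and 2 UMIs from NGO to FGO, and the 0 in GO1 allows up to 0.112 CPM (3 UMIs over the stage sum). Its exons overlap those of Ccdc38 and 4933408J17Rik on the opposite strand, and it has 1 near-identical copy elsewhere in the genome. Ccdc38 had 0.437, 9.76, 7.97, 6.90 and 2.46 CPM in the same order. Whether the counting used strand, and how reads that match several places were treated, are not given in the sources used here, so the level of Snrpf is uncertain.

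**Figure D3:**
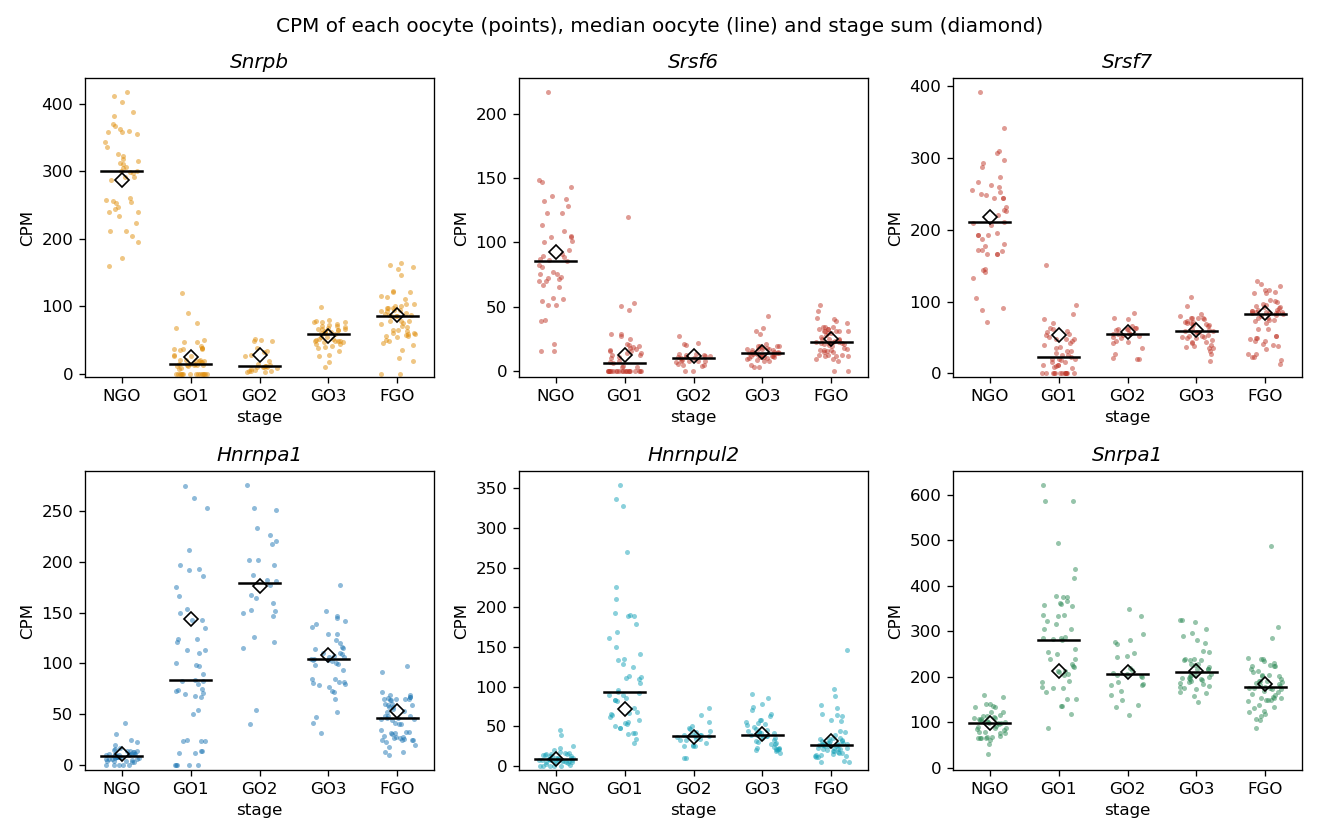
CPM of each oocyte (points), of the median oocyte (line) and of the stage sum (diamond) by stage for 6 genes that rose or fell between NGO and GO1; each panel has its own linear axis from about 0. All 46 NGO oocytes lie above all 51 GO1 oocytes for Snrpb, whereas the ranges of Srsf6, Srsf7, Hnrnpa1, Hnrnpul2 and Snrpa1 overlap.

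The genes of SR proteins were the role with the lowest median difference on this step, -0.85 on the log2 scale over the 9 of 11 that reached 10 CPM in NGO or GO1. Of these 9, 3 fell (33.3%, beside 25.7% of all genes), none rose (beside 20.6%) and 6 did neither. Summed over the 11 genes the level was 942, 491, 449.9, 515 and 563 CPM from NGO to FGO, and single oocytes held 508 to 1464 CPM (median 940.2) in NGO and 206 to 978 CPM (median 470.3) in GO1. From NGO to FGO 4 of the 9 fell (44.4%, beside 16% of all genes), Srsf3, Srsf6, Srsf7 and Srsf9, and none rose (beside 11.3%). With TMM factors Srsf3 and Srsf9 came under the limit.

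Srsf6, whose product SRp55 binds exonic enhancers, fell most among them. It lies at NCBIM37 chromosome 2, 162757264 to 162762857, plus strand and had 92.3, 12.4, 11.5, 14.6 and 24.5 CPM. NGO oocytes held 15.1 to 217 CPM (median 85.9) and GO1 oocytes 0 to 120.1 CPM (median 5.65), with 22 of the 51 GO1 oocytes at 0. The ranges overlapped, but the median GO1 oocyte lay below the lowest NGO oocyte. Both values are near a single count. That NGO oocyte had 66076 UMIs in all, and 1 UMI was 9.08 CPM in the GO1 cell of median depth. The fall was 7.46-fold (95% counting interval 6.65 to 8.40), and FGO was 3.76-fold (95% counting interval 3.53 to 4.01) below NGO. Srsf7, which encodes 9G8 and also takes part in mRNA export, lies at NCBIM37 chromosome 17, 80599429 to 80606629, minus strand. It had 217, 53.8, 57.2, 60.8 and 84.7 CPM in the sums and 213, 30.6, 52.2, 58.6 and 74.9 CPM in the mean over cells. Its cells held 70.96 to 391 CPM (median 210.2) in NGO, 0 to 150.4 CPM (median 23.4) in GO1 and 12.5 to 128.7 CPM (median 83.1) in FGO. The fall to GO1 was 4.03-fold (95% counting interval 3.81 to 4.28) in the sums and 6.97-fold in the mean over cells, and FGO was 2.56-fold (95% counting interval 2.47 to 2.66) below NGO.

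Srsf3, the gene of the smallest SR protein SRp20, had 157.5, 72.03, 62.02, 69.3 and 74.7 CPM and fell 2.19-fold (95% counting interval 2.07 to 2.31) from NGO to GO1. Its mean over cells differed by 1.96-fold, under the limit. It has 4 near-identical copies in the genome, and how reads were divided among them is not given in the sources used here. Srsf9, whose product is SRp30c, had 46.2, 23.2, 13.9, 17.2 and 21.2 CPM and missed the 2-fold limit on the step to GO1, at 1.99-fold (95% counting interval 1.80 to 2.20). It was 2.18-fold (95% counting interval 2.02 to 2.36) lower in FGO than in NGO in the sums and 1.97-fold lower in the mean over cells, which is under the limit.

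The remaining SR genes did not pass the limit in the sums. Srsf10, which encodes SRp38, a repressor of splicing in its dephosphorylated form, had the smallest range of the role with 80.8, 97.8, 89.9, 96.3 and 82.2 CPM. Srsf5 had 156.9, 86.9, 100.01, 115.9 and 130.7 CPM in the sums, but 159.4, 54.1, 88.3, 107.9 and 123.98 CPM in the mean over cells, a fall of 2.95-fold from NGO to GO1. Srsf11 had 89.4, 55.6, 57.1, 84.2 and 77.6 CPM and Srsf2, the gene of SC35, 84.3, 70.1, 46.8, 44.7 and 55.3 CPM. Srsf1, which encodes the splicing factor SF2/ASF, had 17.1, 18.8, 11.01, 11.8 and 11.9 CPM. The counts of Srsf4 (9, 6, 8, 10 and 29 UMIs from NGO to FGO) and Srsf12 (0, 0, 1, 3 and 1 UMIs) were too low for a fold change, and the 0 of Srsf12 allows up to 0.119 CPM in NGO and 0.112 CPM in GO1.

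**Figure D4:**
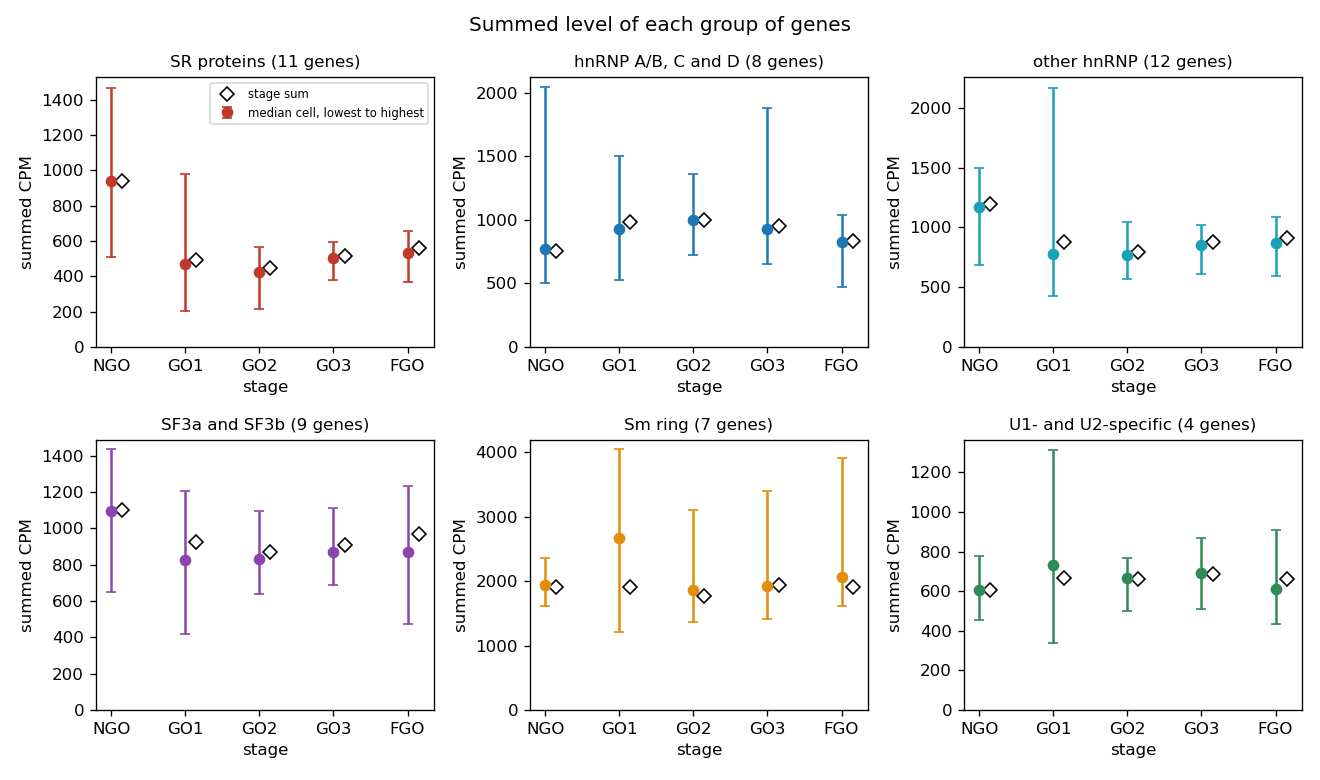
Summed CPM of the genes of each role by stage, as the median cell (filled circle) with the lowest and highest cell (bar) and as the stage sum (open diamond), on linear axes from 0. The SR genes have their highest sum in NGO, and the 8 genes of the hnRNP A/B, C and D families their lowest.

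The hnRNP genes of the A/B, C and D families, of which Hnrnpa1 is the best known, had a median above 0. Their median log2 difference from NGO to GO1 was 0.48 over 7 of 8 genes. Of the 7, 1 rose and 1 fell (14.3% each, beside 20.6% and 25.7% of all genes). The sum of the 8 was 752, 985, 1001, 949.6 and 835 CPM from NGO to FGO. Hnrnpa1, the gene of an hnRNP that silences exons, had the widest range of all 44 genes, 15.7-fold between its highest and lowest stage. It lies at NCBIM37 chromosome 15, 103070945 to 103074445, plus strand and had 11.2, 143.9, 176, 108.05 and 53.6 CPM, highest in GO2. NGO oocytes held 0 to 41.2 CPM (median 8.69), GO1 oocytes 0 to 274 CPM (median 83.3), GO2 oocytes 40.8 to 275 CPM (median 179), GO3 oocytes 31.3 to 177 CPM (median 104.2) and FGO oocytes 9.79 to 97.5 CPM (median 45.9). The ranges of NGO and GO1 overlapped, with 5 GO1 oocytes at 0, whereas the lowest GO2 oocyte lay just under the highest NGO oocyte.

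Hnrnpa1 rose 12.8-fold (95% counting interval 11.4 to 14.5) from NGO to GO1 and fell 2.01-fold (95% counting interval 1.93 to 2.10) from GO3 to FGO. As means over cells the rise was 9.72-fold and the late fall 2.24-fold. Without the 10 deepest cells of each stage the late fall was under 2-fold. FGO was 2.68-fold (95% counting interval 2.56 to 2.81) below GO1 and 4.78-fold (95% counting interval 4.23 to 5.41) above NGO. The gene has 9 near-identical copies in the genome, and reads that match more than 1 of them may have been counted for either.

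Hnrnpdl, which encodes a relative of hnRNP D that binds AU-rich RNA, was the 1 gene of these families that fell in the sums. It had 172, 78.2, 66.9, 67.6 and 78.9 CPM and its cells held 68.2 to 349 CPM (median 187) in NGO and 0 to 415 CPM (median 77.3) in GO1. The fall was 2.20-fold (95% counting interval 2.09 to 2.32) in the sums and 1.86-fold, under the limit, in the mean over cells. FGO was 2.18-fold (95% counting interval 2.10 to 2.27) below NGO. Hnrnpc, whose product binds runs of uridine in nascent RNA, had 388, 556, 607, 619 and 530.2 CPM and stayed within 1.59-fold. Hnrnpa2b1 had the smallest range of the role, with 73.9, 58.2, 61.8, 51.2 and 72.1 CPM. Hnrnpab had 39.2, 50.6, 34.5, 36.6 and 32.98 CPM and Hnrnpd 12.7, 20.4, 11.8, 10.497 and 11.3 CPM in the sums. Hnrnpd rose in the mean over cells, from 13.5 to 28.2 CPM at the onset of growth (2.08-fold). Hnrnpa3, which has 30 near-identical copies in the genome, had 48.7, 67.9, 38.4, 50.7 and 49.7 CPM in the sums but 48.8, 127.6, 37.7, 52.8 and 58.7 CPM in the mean over cells, a rise of 2.61-fold from NGO to GO1. Hnrnpa0 stayed under 10 CPM, with 6.31, 9.94, 4.08, 6.34 and 6.16 CPM.

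Among the other hnRNP genes 1 rose and 2 fell from NGO to GO1, of 9 that reached 10 CPM, and the median log2 difference was -0.51. These are 11.1% and 22.2%, beside 20.6% and 25.7% of all genes. Hnrnpul2, which encodes a relative of the nuclear scaffold protein hnRNP U, rose. It lies at NCBIM37 chromosome 19, 8893891 to 8908632, plus strand and had 9.45, 71.8, 36.3, 39.9 and 31.3 CPM in the sums and 10.6, 119.7, 37.7, 42.4 and 33.7 CPM in the mean over cells. NGO oocytes held 0 to 45.8 CPM (median 8.34), GO1 oocytes 29.5 to 353 CPM (median 93.3) and FGO oocytes 4.89 to 146.2 CPM (median 26.9). The ranges of NGO and GO1 met only between 29.5 and 45.8 CPM. The rise to GO1 was 7.61-fold (95% counting interval 6.64 to 8.74) in the sums and 11.3-fold in the mean over cells. FGO was 2.30-fold (95% counting interval 2.16 to 2.45) below GO1, or 3.55-fold in the mean over cells, and 3.31-fold (95% counting interval 2.89 to 3.80) above NGO. Hnrnpu itself, which anchors chromatin and RNA in the nucleus, had 87.8, 112.1, 83.7, 72.7 and 63.5 CPM and neither rose nor fell.

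Hnrnpm, the gene of an hnRNP that binds GU-rich RNA, fell. It had 89.01, 21.3, 20.3, 26.7 and 42.4 CPM, with cells of 32.3 to 143.9 CPM (median 90.2) in NGO and 0 to 191 CPM (median 18.9) in GO1. The fall was 4.17-fold (95% counting interval 3.80 to 4.58) in the sums and 2.71-fold in the mean over cells, and FGO was 2.10-fold (95% counting interval 1.98 to 2.22) below NGO in the sums and 1.71-fold, under the limit, in the mean over cells. An exon of Hnrnpm overlaps March2 on the same strand.

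Hnrnpf and Hnrnph1, whose products bind runs of guanine, were highest in NGO. Hnrnpf had 354, 161, 131.9, 132.1 and 159.6 CPM and fell 2.20-fold (95% counting interval 2.12 to 2.28) from NGO to GO1. Its cells held 207 to 473 CPM (median 339) in NGO and 0 to 605 CPM (median 138.8) in GO1, so that the GO1 range spanned that of NGO. In GO2 they held 54.4 to 191 CPM (median 118.2), in GO3 74.6 to 175 CPM (median 122.5) and in FGO 61.98 to 226 CPM (median 139.2). Oocytes of GO2 and GO3 lay below all NGO oocytes, and those of FGO overlapped with them. FGO was 2.22-fold (95% counting interval 2.16 to 2.28) below NGO. It has 7 near-identical copies, and an exon overlaps 4933440N22Rik on the opposite strand. Hnrnph1 had 68.2, 38.5, 22.9, 25.95 and 30.7 CPM, with NGO above FGO by 2.22-fold (95% counting interval 2.08 to 2.37) and above GO1 by 1.77-fold (95% counting interval 1.64 to 1.91), the latter under the limit. Hnrnph2 had 68.3, 46.1, 47.3, 45.9 and 42.7 CPM, and Hnrnph3 stayed at or under 1.74 CPM.

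Hnrnpk, which binds runs of cytosine, was the flattest gene of this role with 427, 357, 401, 464 and 457 CPM. Its mean over cells was lower in GO1 than in any other stage, at 398, 236, 369, 436 and 395 CPM. Hnrnpr had 50.5, 35.4, 29.7, 33.9 and 40.2 CPM and Hnrnpl, which binds CA repeats, 29.8, 23.7, 19.9, 30.7 and 33.5 CPM. Hnrnpll (9.60, 5.31, 2.56, 4.998 and 6.47 CPM) and Hnrnpul1 (2.14, 0.523, 0.881, 0.602 and 0.917 CPM) did not reach 10 CPM in a stage.

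SF3a and SF3b, which form much of the U2 snRNP, held 1 gene that fell in the sums. From NGO to GO1 this was 11.1% of the 9 and none rose, beside 25.7% and 20.6% of all genes. In the sums the other 8 of the 9 neither rose nor fell in any pair of stages compared, and the median log2 difference from NGO to GO1 was -0.35. Sf3a2 was the exception, with 19.6, 9.08, 8.13, 8.57 and 11.4 CPM and a difference of 2.16-fold (95% counting interval 1.85 to 2.53) from NGO to GO1 whose interval includes 2-fold. Averaged over cells it was 3.47-fold, at 19.4, 5.59, 6.87, 7.48 and 6.58 CPM, and 31 of the 51 GO1 oocytes had no UMI of it. An exon of Sf3a2 overlaps Plekhj1 on the opposite strand. Sf3a3 had the smallest range, 241, 206, 209, 184 and 207 CPM, and Sf3b1, the subunit that closes around the branch point, had 234, 224, 192, 169.6 and 184 CPM. Sf3b5, a small subunit of SF3b, was the 1 gene of the 9 that was lowest in NGO and highest in FGO, with 97.6, 129.4, 140.5, 167 and 174 CPM. Sf3b6, whose product p14 touches the branch point adenosine, had 70.6, 66.6, 52.1, 84.1 and 77.8 CPM.

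The remaining subunits were highest in NGO. Sf3a1 had 82.1, 64.3, 35.8, 41.99 and 42.05 CPM and Sf3b3 60.6, 40.7, 27.4, 32.4 and 36.9 CPM, so both missed 2-fold between NGO and FGO in the sums. Between NGO and GO2, a pair outside those compared, Sf3a1 differed by 2.30-fold and Sf3b3 by 2.21-fold. Sf3a1 passed 2-fold between NGO and FGO in the mean over cells, at 2.41-fold (78.5 against 32.6 CPM). Sf3b2 had 158.7, 117.4, 123.2, 120.7 and 123.7 CPM and Sf3b4 137.2, 69.3, 82.6, 99.7 and 110.97 CPM in the sums, each lowest in GO1. Their means over cells fell past the limit from NGO to GO1. Sf3b4 went from 134.001 to 38.8 CPM (3.45-fold) and Sf3b2 from 165 to 73.3 CPM (2.25-fold).

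Snrpa1, which encodes the A' protein of the U2 snRNP, was the 1 gene specific to U1 or U2 that rose in the sums. It lies at NCBIM37 chromosome 7, 73205185 to 73219468, plus strand and had 98.8, 214, 210.1, 213 and 185 CPM in the sums and 97.5, 286, 216, 222 and 186 CPM in the mean over cells. NGO oocytes held 30.8 to 161 CPM (median 98.7) and GO1 oocytes 88.1 to 622 CPM (median 281), so the lowest GO1 oocytes lay within the NGO range. The rise to GO1 was 2.16-fold (95% counting interval 2.06 to 2.27) in the sums and 2.93-fold in the mean over cells. Its partner Snrpb2, which encodes the B'' protein of the same particle, was the flattest of all 44 genes in the sums. It had 223, 231, 227, 212 and 218 CPM, a ratio of 1.09 between its highest and lowest stage. In the mean over cells Snrpb2 was less even, at 237, 337, 252, 216 and 216 CPM. The U1 genes Snrpa and Snrpc had 104.6, 77.2, 83.3, 89.3 and 98.9 CPM and 179, 143.6, 142.01, 173 and 159.96 CPM in the sums. From NGO to GO1 1 of the 4 genes of this role rose (25%) and none fell, beside 20.6% and 25.7% of all genes. Snrpa fell in the mean over cells, from 104.9 to 46.1 CPM at the onset of growth (2.28-fold).

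After the onset of growth few of the genes moved past the limit. From GO1 to GO2 none of 43 rose or fell, where 0.109% of all genes rose and 3.03% fell, and the median log2 difference was -0.12 against -0.11 over all genes. Averaged over cells 6 of the 51 genes fell on this step (Hnrnpa0, Hnrnpa3, Hnrnpd, Hnrnpul2, Srsf1 and Srsf9). The share of all genes that fell in the mean over cells was not counted, so the 6 have no such share beside them. From GO2 to GO3 Snrpb rose and none of 43 fell, against 3.34% and 1.01% of all genes. From GO3 to FGO none of 44 rose and Hnrnpa1 fell, against 2.41% and 3.54% of all genes. The medians were 0.10 and 0.10, beside 0.081 and 0.062 over all genes.

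Across the whole of growth, from NGO to FGO, 2 genes rose (Hnrnpa1 and Hnrnpul2) and 9 fell (Hnrnpdl, Hnrnpf, Hnrnph1, Hnrnpm, Snrpb, Srsf3, Srsf6, Srsf7 and Srsf9). Of all genes, 11.3% rose and 16% fell, against 4.55% and 20.5% of these 44. Their median log2 difference was -0.25, and -0.12 over all genes. In the mean over cells 2 rose and 9 fell, with Sf3a1 and Sf3a2 in place of Hnrnpm and Srsf9. Shares of all genes were not counted for that mean or for TMM factors. With TMM factors 4 rose and 3 fell in place of 2 and 9, since Sf3b5 and Snrpa1 came in and the falls were those of Snrpb, Srsf6 and Srsf7. Between GO1 and FGO, both from mice of the same age, 1 rose (Snrpb) and 2 fell (Hnrnpa1 and Hnrnpul2), against 7.98% and 9.03% of all genes. Here the median was -0.039, and 0.02 over all genes. The steps share stages, so these counts are not independent of each other.

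Shallow and deep GO1 oocytes differed in some of the genes. The 24 GO1 cells under 100000 UMIs held 1292836 UMIs together and the other 27 held 25460047. Of the 44 genes, 4 were at least 2-fold higher in the sum of the shallow cells (Hnrnpa3, Hnrnpl, Hnrnpm and Hnrnpul2) and 6 were lower (Hnrnpa1, Sf3b2, Sf3b4, Snrpa, Srsf5 and Srsf7), where 9.68% of all genes were higher and 22.6% lower. Set against NGO, the shallow cells alone gave 5 rises and 10 falls, in a table where 23.1% of genes rose and 38.9% fell. The rises of Hnrnpa1, Hnrnpul2 and Snrpa1 and the falls of Hnrnpf, Sf3a2, Snrpb, Srsf6 and Srsf7 were among them, while Hnrnpdl, Hnrnpm and Srsf3 were not. The level of Hnrnpa1 was 65.7 CPM in the shallow and 147.9 CPM in the deep GO1 cells, and Snrpb had 17.02 and 25.1 CPM. This split was chosen after the values were seen, and whether the shallow cells differ by library is not known from the table.

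Other genes of splicing give the surroundings of these changes. Of 170 further genes in 9 groups, 24 stayed under 10 CPM in both NGO and GO1. From NGO to GO1 19 of the others rose and 25 fell, with a median log2 difference of -0.06. Of 15 genes listed for snRNP assembly, among them partners of the proteins that do it, 6 fell (40%, beside 25.7% of all genes) and 2 rose (13.3%, beside 20.6%). Gemin4, a component of the SMN complex that assembles Sm rings, fell from 18.7 to 1.87 CPM, a difference of 10-fold (95% counting interval 7.46 to 13.7). Snupn, which carries finished snRNPs into the nucleus, had the larger of the 2 rises, from 90.8 to 238 CPM, or 2.62-fold (95% counting interval 2.50 to 2.75). The other falls, named here after their values were seen, were those of Coil (from 51.1 to 9.61 CPM), Gemin5 (from 14.7 to 3.18 CPM), Prmt5 (from 53.6 to 11.8 CPM), Gemin2 (from 26.7 to 6.54 CPM) and Coprs (from 157.8 to 64.2 CPM). Prmt5 is the enzyme that methylates arginines of Sm proteins and Coprs binds it.

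In the Prp19 complex and the catalytic steps 6 of 24 rose (25%) and 4 fell (16.7%), beside 20.6% and 25.7% of all genes. Cwc22, which brings the exon junction complex to the spliceosome, fell from 477 to 24.9 CPM, or 19.2-fold (95% counting interval 17.8 to 20.8), and Rbm22 rose from 45.1 to 157.4 CPM. In the U5 and U4/U6 tri-snRNP 2 of 25 rose (8%), with Snrnp27 furthest (from 241 to 671 CPM). In the same group 3 fell (12%), with Prpf4 furthest (from 19.9 to 5.57 CPM). Of the U2 auxiliary and branch point factors 2 of 8 fell (25%), Puf60 furthest (from 474 to 205 CPM). Of the U1-associated proteins 2 of 11 fell (18.2%), Ddx5 furthest (from 527 to 135.99 CPM), and neither group held a rise.

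Among 21 kinases and relatives of SR proteins, 2 rose (9.52%) and 1 fell (4.76%), beside 20.6% and 25.7% of all genes. Scaf4 rose from 5.83 to 38.8 CPM and Acin1 fell from 32.1 to 11.2 CPM. In the exon junction complex Magohb rose from 17.2 to 71.1 CPM and Upf3a fell from 49.6 to 23.4 CPM, of 6 measured (16.7% each). Of 26 other RNA-binding regulators of splicing 5 rose (19.2%) and 6 fell (23.1%). Pcbp1 had the largest rise (from 43.7 to 157.7 CPM) and Rbm10 the largest fall (from 25.99 to 3.21 CPM). Of 10 proteins of the minor spliceosome 1 (10%) rose, Pdcd7 (from 135.4 to 287 CPM), and none fell.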

How the data were processed

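Single oocytes were sequenced in 4 libraries. The authors sorted reads by barcode and, after trimming, aligned them to the mm9 transcriptome with Tophat, removed duplicates by UMI, kept cells of sufficient depth and low spike-in share, and deposited UMI counts per gene and cell, without normalization. Genes, roles and lists were chosen with earlier results of these data known. The named genes were those past the 2-fold and 10 CPM limits in any of 6 stage pairs, the flattest gene of each role, and per further group the largest rise and fall from NGO to GO1.

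Counts were summed per stage and scaled to CPM. Intervals are exact (Poisson, or the binomial split of both counts). No doublet caller was run on these hand-picked cells. Positions are from GENCODE vM1 on NCBIM37 (mm9), with 3 genes found under older symbols. Copies were searched with BLAST 2.17.0 (at least 300 bases and 95% identity). Alternatives were DESeq2 1.42.0 and edgeR 4.0.16 factors, used for scaling only, the mean over cells, sums without the 10 deepest cells, cells of at least 100000 UMIs, cells thinned to 20000 UMIs, 1.5-fold, 50 CPM and no filter. The code of the limits was checked on counts drawn from a pooled stage profile with planted changes. Those counts had no spread between cells or libraries, so false calls from such spread were not assessed. R 4.3.3 and Python 3.11.15 were used, the latter with scipy 1.17.1, pandas 2.3.3 and numpy 2.4.6. The iscCOOL-seq data were not analysed here.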

Additional observations from a re-analysis of the deposited data

How the results depend on the processing

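With 1 pooled sample per stage the calls rest on size alone, and depth limits GO1 most, where a count of 1 UMI in the median cell is 9.08 CPM. All 162 alternative values of the 27 folds past the limits kept their direction, and 26 of them were below 2-fold. No paired analysis was possible because the columns name no library, animal or replicate that stages share. No replicate was left out, since each stage is 1 pooled sample.

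In the following, rises and falls are counts of the 51 genes, and medians are log2 differences over those that reached 10 CPM. Medians over all genes that reached it are given beside them. The share of all genes that rose or fell was not counted with these alternatives, except in GO1 cells under 100000 UMIs. With size factors by the median of ratios there were 0 rises from GO2 to GO3 in place of 1. The medians were -0.22 from NGO to GO1, 0.073 for GO2 over GO1, -0.049 for GO3 over GO2, 0.034 for FGO over GO3, -0.17 for FGO over NGO and -0.058 for FGO over GO1, so the signs of both steps between growing stages turned. Over all genes the medians were -0.022, 0.0915, -0.0727, -0.0037, -0.0278 and -0.0015, so both signs turned there as well. With TMM factors there were 4 falls from NGO to GO1, 0 rises from GO2 to GO3, 4 rises and 3 falls from NGO to FGO and 3 rises from GO1 to FGO. The medians were then -0.16, 0.046, 0.012, 0.033, -0.081 and -0.025 in the same order. Those over all genes were 0.0469, 0.0633, -0.0086, -0.0042, 0.0751 and 0.0349. In the mean over cells there were 5 rises from NGO to GO1, 6 falls from GO1 to GO2, and 3 rises and 6 falls from GO1 to FGO, with medians of -0.25, -0.38, 0.14, 0.047, -0.37 and -0.15. All genes had medians of -0.3582, -0.0286, 0.1234, -0.0191, -0.2254 and 0.0877. Without the 10 deepest cells there were 5 rises and 13 falls from NGO to GO1, 1 rise and 3 falls from GO1 to GO2, 0 falls from GO3 to FGO and 5 rises from GO1 to FGO, with medians of -0.48, -0.26, 0.078, 0.080, -0.38 and -0.0010. The medians over all genes were -0.4447, 0.0457, 0.0952, 0.014, -0.198 and 0.1915. In cells of at least 100000 UMIs there were 3 rises from GO1 to FGO, and the medians that moved were -0.30 from NGO to GO1, 0.11 from GO2 to GO3 and -0.010 from GO1 to FGO. For these pairs all genes gave -0.1369, 0.081 and 0.017. In cells thinned to 20000 UMIs there were 5 rises from NGO to GO1, 1 rise and 4 falls from GO1 to GO2, 3 rises and 1 fall from GO2 to GO3, 1 rise from GO3 to FGO and 4 rises and 7 falls from GO1 to FGO, with medians of -0.21, -0.23, 0.12, -0.013, -0.40 and -0.19. After thinning the medians over all genes were -0.3567, -0.028, 0.124, -0.026, -0.2293 and 0.1096.

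With a limit of 1.5-fold there were 5 rises and 13 falls from NGO to GO1, 7 falls from GO1 to GO2, 3 rises and 1 fall from GO2 to GO3, 3 rises from GO3 to FGO, 5 rises and 14 falls from NGO to FGO, and 6 rises and 7 falls from GO1 to FGO. With at least 50 CPM there was 1 rise from NGO to FGO. Without a filter on low counts there were 2 rises and 2 falls from GO1 to GO2, 1 fall from GO2 to GO3, 2 rises and 2 falls from GO3 to FGO and 4 rises from GO1 to FGO, with medians of -0.33 from NGO to GO1, 0.11 from GO3 to FGO and 0.0095 from GO1 to FGO. For these pairs the medians over all genes were -0.0864, 0.0666 and -0.0213. In GO1 cells under 100000 UMIs, a setting added after seeing the data, there were 5 rises from NGO. The cause of these differences was not tested, except that a looser limit passes more genes by construction.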

Other observations

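A few single oocytes stood far above the rest of their stage in 1 gene. One NGO oocyte held 1498 CPM of Hnrnpc (99 of its 66076 UMIs), where the next NGO oocyte held 519 CPM and the median was 385. One GO3 oocyte, with 787641 UMIs, held the highest level of its stage in both Hnrnpc (1404 CPM, next 873) and Hnrnpdl (190.4 CPM, next 111.6). One FGO oocyte held 232 CPM of Hnrnpa2b1, where the next held 132.2 CPM. These cells were picked out after their values were seen, and each is 1 cell.

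Exon overlaps bear on further genes with few counts. Hnrnph3 overlaps Rufy2 on the opposite strand, and Rufy2 had 160.96, 81.3, 65.5, 115.3 and 177.7 CPM from NGO to FGO where Hnrnph3 had 1.03, 1.05, 0.961, 0.863 and 1.74 CPM. Srsf4 overlaps Gm12992, which had 6.79, 4.19, 3.80, 5.04 and 7.31 CPM, against 0.357, 0.224, 0.320, 0.201 and 0.451 CPM for Srsf4. The part of these overlaps in the low counts was not tested.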
